A study of Mus musculus with 16 samples.

Results

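The comparison described here set mouse embryo heads at embryonic day 13.5 (E13.5) against heads at E9.5, a span of 4 days, on the 6 arrays titled for each stage, 12 of the 16 arrays in all. The other 4 arrays, of E11.5 heads, divided the span into an earlier interval (E9.5 to E11.5) and a later interval (E11.5 to E13.5), and were used to place each change in time. Transcript levels came from 1-colour short oligonucleotide arrays, and every level below is a log2 intensity, on which a difference of 1 is a 2-fold change. Each gene was represented by the brightest of its probe sets, which gave 18193 genes.

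The submitters call the arrays of a stage biological replicates. The strain and sex of the embryos, and any pooling of them, are not stated in the labels. P-values therefore measure the spread between these samples alone. E13.5 sample names begin with B62 or B63, and values were correlated within a prefix (consensus correlation 0.601). The errors and p-values below treat the E13.5 arrays as independent, so they may be too small. Total RNA of all groups was extracted with the RNeasy Lipid Tissue kit. The E9.5 and E11.5 RNA was labelled with the GeneChip one-cycle IVT kit and the E13.5 RNA with the MessageAmp II-Biotin Enhanced kit. In the net comparison, in the later interval and in the contrast between the intervals, stage and labelling kit cannot be told apart. Samples are labelled as heads, with no account of how they were dissected.

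Over these days the mouse head passes from a neural tube, made mainly of dividing neuroepithelial cells, to a brain with many postmitotic neurons. The face, skull base, eye and head muscles take form beside it from neural crest, mesoderm and surface ectoderm. Early embryonic RNA-binding proteins such as LIN28A are switched off, the first red cells with embryonic globins give way to later ones, and muscle, cartilage and lens cells begin to make the structural proteins that define them. In RNA from a whole head, a lower level can come from fewer cells of a type or from less of the transcript per cell, and these cannot be told apart.

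Between E9.5 and E13.5, 5944 genes were higher (32.7% of the 18193 tested) and 5303 were lower (29.1%) at an adjusted p under 0.05 in limma's moderated test with Benjamini-Hochberg adjustment, 61.8% of genes in all. A change of at least 2-fold was called for 1807 genes that rose (9.93%) and 1288 that fell (7.08%). The shares of all genes, 32.7% higher and 29.1% lower, are those to set beside each gene list count below. The balance between the directions depended on the scaling of the arrays. Rises were 52.8% of called genes with the deposited scaling, 46% with quantile normalization (5165 higher, 6075 lower) and 37.4% with median centring (4551 and 7627), and at 2-fold the counts were 1617 and 1518 with quantile normalization and 1504 and 1676 with median centring. Median centring moved the net median of all genes by -0.145 on the log2 scale and quantile normalization by -0.051, so no excess of rises over falls is read from these counts, and small net differences are relative to that shift. Of the 34 gene lists, the median of 3 changed sign under a scaling (cytosolic ribosomal proteins, heart, and neural crest and facial mesenchyme). E9.5 and E13.5 values were fully separate for 1806 of these rises and 1285 of these falls, and for 8142 genes overall (44.8%). The median net difference over all genes was 0.00677, against 0.0188 in the earlier and 7.69e-05 in the later interval. Correlations between arrays across genes, which are not independent replicates, were 0.9231 to 0.9377 between E9.5 and E13.5 and at least 0.9884 within each stage. Control probe sets differed between the stages as well. Added poly-A control transcripts lay at 7.34 to 7.90 at E9.5, 5.21 to 5.50 at E11.5 and 4.98 to 5.22 at E13.5 (mean over 27 probe sets), and 18S ribosomal RNA at 6.86 to 7.81, 9.81 to 10.50 and 10.51 to 10.89. Their part in the results was not tested.

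The neural identity of the tissue was checked on markers of neural cells. The progenitor factor Sox2 was at 10.91 to 11.15 (median 11.01) at E9.5 and at 9.65 to 10.04 (median 9.94) at E13.5, and it fell by 1.12 on the log2 scale (limma adjusted p = 1.59e-10). Pax6 lay at 8.85 to 9.25 and 8.1 to 8.39, the forebrain and midbrain factor Otx2 at 9.11 to 9.86 and 8.27 to 8.54, and the progenitor filament gene Nes at 7.97 to 8.36 and 9.0 to 9.18. En1, which marks the midbrain-hindbrain boundary, was lower throughout, at 4.95 to 5.52 and 3.7 to 3.91. The neuronal tubulin gene Tubb3 lay at 6.95 to 8.33 and 10.39 to 10.69. Dcx, of migrating neurons, lay at 4.76 to 7.6 at E9.5, where samples 13 and 15 were lowest (4.81 and 4.76), and at 10.26 to 10.44 at E13.5. Neural markers were thus measured at both stages, with the widest differences in Tubb3 and Dcx.

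The largest net rises belonged to neurons and brain, to connective tissue and cartilage, and to muscle. Ttr, the carrier of thyroid hormone and retinol that the choroid plexus secretes, was at 4.7 to 5.7 (median 5.17) at E9.5, at 8.42, 9.5, 9.51 and 10.24 on the E11.5 arrays and at 11.68 to 11.96 (median 11.81) at E13.5. All 3 stages were separate, and its net difference of 6.62 ± 0.21 (SE, 98.1-fold, limma adjusted p = 2.62e-16) was the largest rise among these ranked genes. Genes were ranked on their brightest probe sets. The 3 other probe sets of Ttr rose by 8.08 to 9.49. Bcl11b, a zinc finger transcription factor of deep cortical and striatal neurons, was at 3.81 to 4.86 (median 4.49) at E9.5, 8.46, 8.55, 8.73 and 8.89 at E11.5 and 10.95 to 11.06 (median 11.02) at E13.5, a net difference of 6.59 ± 0.12 (96.1-fold, adjusted p = 1.93e-19). Its stages did not overlap either, and its 3 other probe sets rose by 3.12 to 5.97. Nfib, a nuclear factor I protein of neural and glial progenitors, was at 4.25 to 5.21 (median 4.73) at E9.5, 7.2, 7.46, 7.56 and 7.69 at E11.5 and 10.89 to 11.10 (median 10.92) at E13.5, a net difference of 6.22 ± 0.12 (adjusted p = 5.12e-19), and its 6 other probe sets rose by 0.76 to 6.45. The adhesion molecule Chl1, a relative of L1, rose by 5.44 ± 0.10 (adjusted p = 1.12e-19), though its 3 other probe sets rose by only 0.21 to 1.44. The reticulon Rtn1, of neuronal endoplasmic reticulum, rose by 5.41 ± 0.16 (adjusted p = 1.44e-16).

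Non-neural genes filled the other 7 of the 12 largest rises among the ranked genes. The proteoglycan Dcn, which binds collagen fibrils, was at 3.7 to 4.52 (median 4.08) at E9.5, 5.04, 5.21, 5.46 and 5.56 at E11.5 and 10.26 to 10.66 (median 10.39) at E13.5, a net difference of 6.34 ± 0.13 (adjusted p = 8.51e-19). Its stages were separate, though its other probe set rose by only 0.66. Tnnc1, the troponin C of slow muscle and heart, was at 3.91 to 4.46 (median 4.25) at E9.5, 3.7, 4.32, 4.46 and 4.46 at E11.5 and 9.94 to 10.65 (median 10.25) at E13.5, a net difference of 6.09 ± 0.14 (adjusted p = 3.71e-18). Here the E9.5 and E11.5 arrays overlapped and only E13.5 stood apart. Actc1, the cardiac actin that embryonic skeletal muscle also makes, was at 5.29 to 5.78 (median 5.59) at E9.5, 5.39, 5.39, 5.62 and 5.64 at E11.5 and 11.06 to 11.34 (median 11.15) at E13.5, a net difference of 5.61 ± 0.09 (adjusted p = 2.65e-20), with the same shape. The others were Col6a3, a collagen VI chain (5.95 ± 0.13), the proteoglycan Ogn (5.78 ± 0.14), the myosin light chain Myl1 (5.63 ± 0.14) and the cartilage gene Cnmd (5.62 ± 0.12), each with an adjusted p of at most 1.08e-17. Ogn, Myl1 and Chl1 had E9.5 means under 3.58, the lower quartile of all values, so their rises are read as lower limits. This held for 140 of the 1807 rises.

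**Figure D1:**
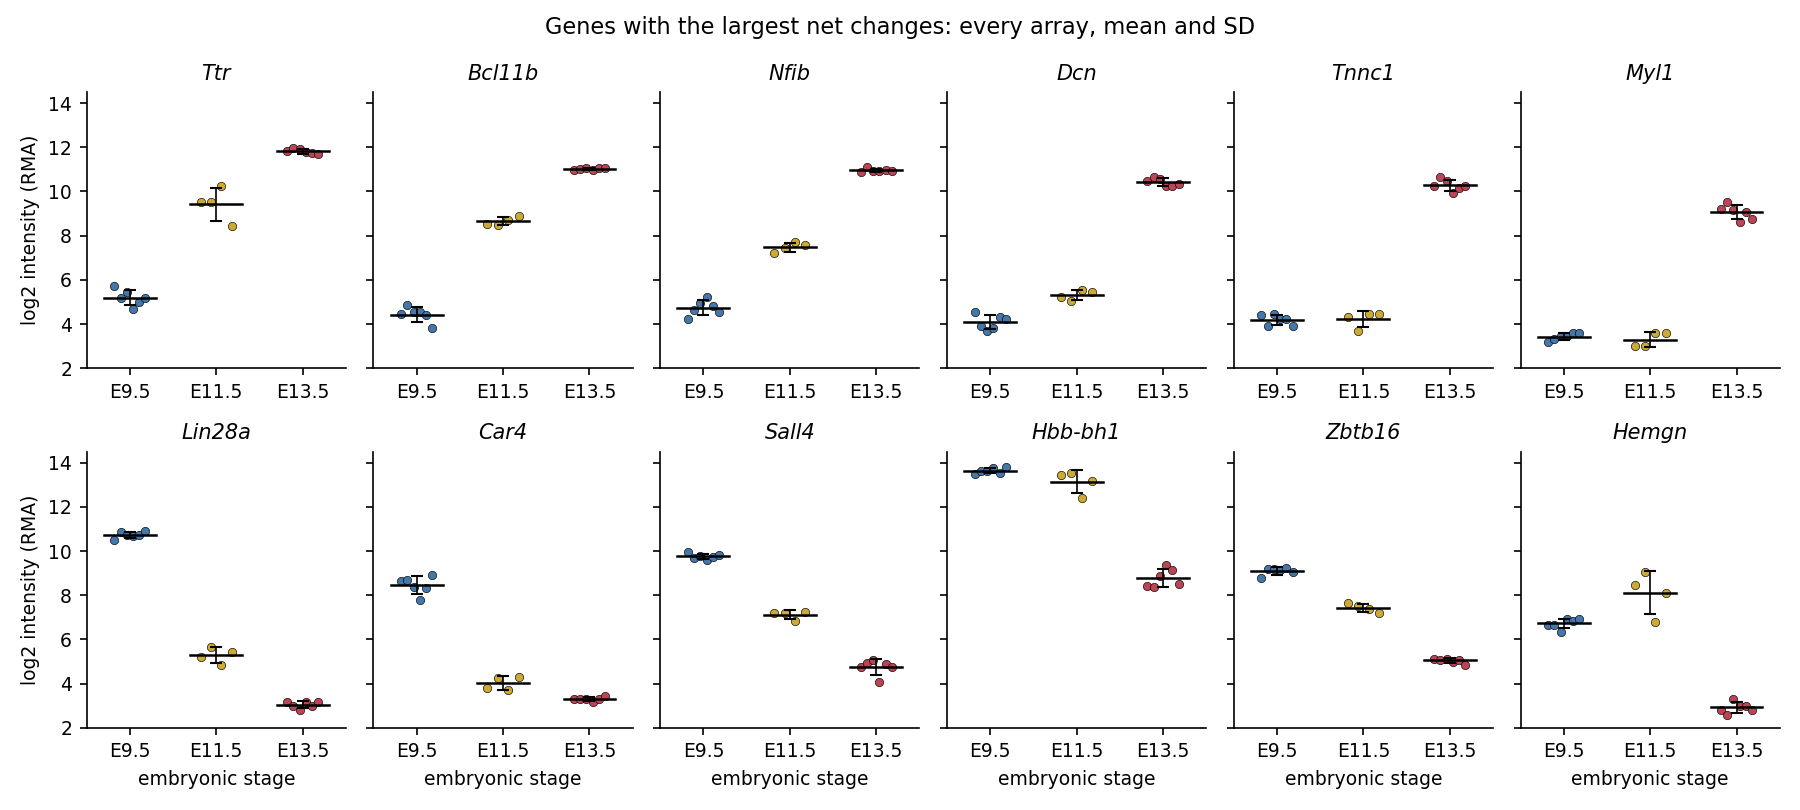
Log2 intensity of 6 of the largest net rises (top row) and 6 of the largest net falls (bottom row) on every array at E9.5 (6 arrays), E11.5 (4) and E13.5 (6); points are arrays, lines are means and bars are SD. Ttr, Bcl11b and Nfib were already up at E11.5, Tnnc1 and Myl1 were not, and Hemgn at E11.5 lay at or above its E9.5 level on most arrays.

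The 12 largest net falls among the ranked genes included regulators of the early embryo, genes at the cell surface or in signalling, and red cell genes. Lin28a, an RNA-binding protein that blocks the maturation of let-7 microRNAs, was at 10.50 to 10.92 (median 10.72) at E9.5, at 4.86, 5.21, 5.43 and 5.67 at E11.5 and at 2.81 to 3.17 (median 3.09) at E13.5. Its stages were far apart, and its net difference of -7.68 ± 0.11 (204-fold, limma adjusted p = 1.33e-20) was the largest in either direction among the ranked genes, each on its brightest probe set. Its E13.5 mean was under the lower quartile, so on this probe set the fall is a lower limit. The other probe set of Lin28a had a net difference of only -3.955, and the 3 others of Ttr, at 8.08 to 9.49, changed by more than either. Trim71, a ubiquitin ligase gene whose message let-7 targets, was at 8.86 to 9.43 (median 9.04) at E9.5, 5.83, 5.95, 6.23 and 6.36 at E11.5 and 4.39 to 4.76 (median 4.55) at E13.5, a net difference of -4.52 ± 0.11 (adjusted p = 5.09e-18). Sall4, a zinc finger factor of pluripotent cells, was at 9.61 to 9.96 (median 9.76) at E9.5, 6.82, 7.2, 7.21 and 7.23 at E11.5 and 4.09 to 5.09 (median 4.83) at E13.5, a net difference of -5.0 ± 0.13 (adjusted p = 1.56e-17), with the intervals not told apart. Nr6a1, an orphan nuclear receptor that shuts off pluripotency genes, fell to a net difference of -4.3 ± 0.14, with 1 of its 4 other probe sets not called.

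Others among these 12 act at the cell surface, in signalling or in the nucleus. Car4, a membrane-anchored carbonic anhydrase, was at 7.76 to 8.92 (median 8.51) at E9.5, 3.7, 3.81, 4.25 and 4.32 at E11.5 and 3.17 to 3.46 (median 3.32) at E13.5, a net difference of -5.14 ± 0.15 (adjusted p = 9.91e-17). Its E13.5 mean was under the lower quartile, so the fall is a lower limit and its share by E11.5 an upper one. Prtg, an immunoglobulin superfamily protein of the early neural tube, was at 10.31 to 10.87 and 5.95 to 6.3 (-4.45 ± 0.10, adjusted p = 1.48e-18). The docking protein gene Irs4, of insulin signalling, had a net difference of -4.22 ± 0.16, against -1.44 on its other probe set. Lrp2, the endocytic receptor megalin of the neuroepithelium, was at -3.88 ± 0.12, with 1 of its 2 other probe sets not called. Igdcc3, a relative of the netrin receptor DCC, was at -3.79 ± 0.12 and its other probe sets at -1.84 and -0.37. Zbtb16, a transcriptional repressor of progenitor cells, was at 8.77 to 9.21 (median 9.16) at E9.5, 7.2, 7.38, 7.53 and 7.63 at E11.5 and 4.86 to 5.13 (median 5.09) at E13.5, a net difference of -4.04 ± 0.09 (adjusted p = 2.15e-18). The 2 red cell genes of this group, Hbb-bh1 and Hemgn, are described with the blood below.

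Net changes were then placed in time with the contrast of the later minus the earlier interval, which called 53.2% of all genes. The earlier interval lies within a single labelling kit and the later spans the change of kit, so timing cannot be told apart from kit. The 4 E11.5 arrays enter both intervals with opposite sign, and the comparisons share arrays, so the values of each are given side by side and no relation between them is tested. The earlier interval alone had 31% of genes higher and 26.9% lower, and the later interval 27.9% and 27%. Of the 1807 rises of at least 2-fold, 586 (32.4%) had the larger change in the earlier interval, 636 (35.2%) in the later, and for 585 (32.4%) the intervals could not be told apart. Of the 1288 falls, 536 (41.6%) were larger in the earlier interval, 330 (25.6%) in the later and 422 (32.8%) could not be told apart. The median share of the net change reached by E11.5 was 47.5% for rises (quartiles 24.3% and 74.1%) and 58.6% for falls (32.6% and 86.3%). Averaging a gene's probe sets left 351 rises larger in the earlier interval, and taking the second-brightest one left 325.

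**Figure D2:**
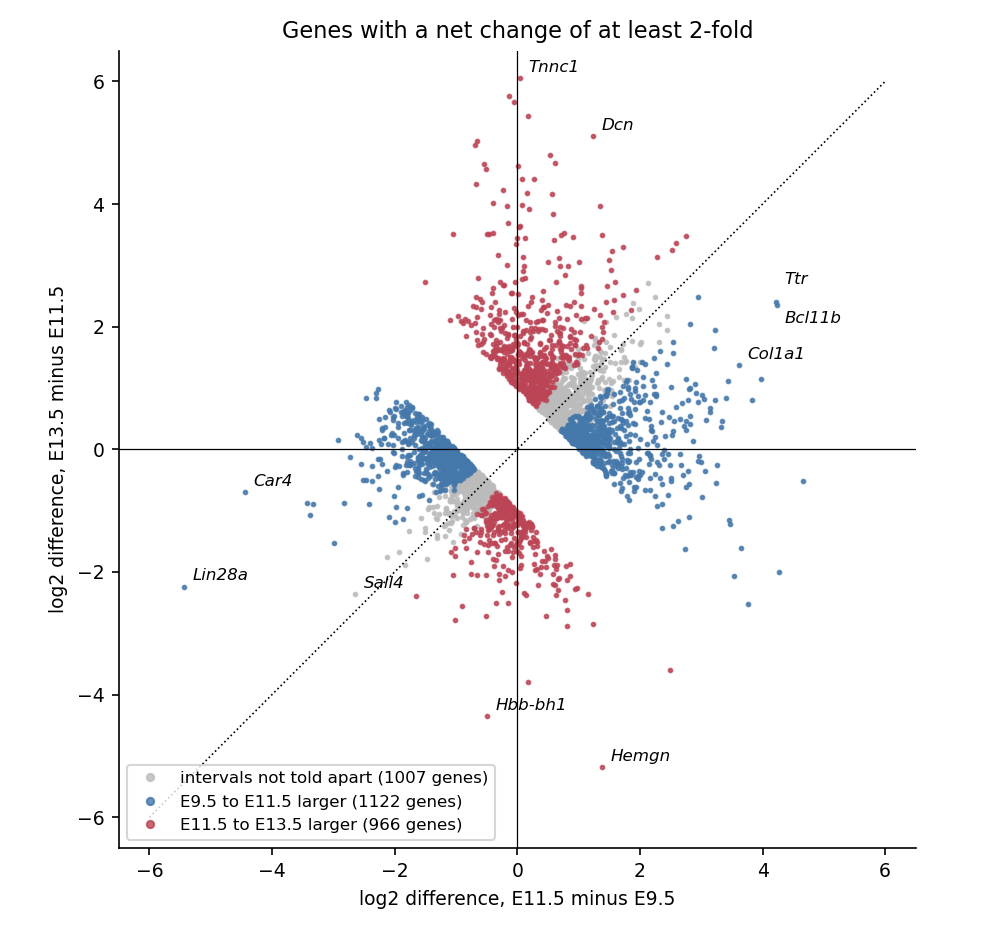
Each point is a gene with a called net change of at least 2-fold (1807 rises, 1288 falls), placed by its log2 difference in the earlier interval (x axis) and in the later interval (y axis); the dotted line marks equal change in both. Colours give the call of the contrast between the intervals. Rises form the upper right arm (586 larger in the earlier interval, 636 in the later) and falls the lower left arm (536 and 330), and Tnnc1 lies on the vertical axis with no earlier change.

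Timing classes were set beside the size of the net change, with no test between sizes. Rises larger in the earlier interval were 32.2%, 32.4% and 40% of those of 2- to 4-fold (1294 genes), 4- to 8-fold (339) and 8- to 16-fold (110), and rises larger in the later interval were 33.2%, 36.3% and 39.1%. Of the 64 rises of 16-fold or more, 15 (23.4%) were larger in the earlier interval and 40 (62.5%) in the later. Among these 40 were the muscle genes Tnnc1 and Actc1, the cartilage gene Cnmd, the proteoglycan Dcn and the lens gene Cryba1. On the second-brightest probe set of Dcn the later minus the earlier change was 0.24 and not called (adjusted p = 0.24). The median share reached by E11.5 was 47.9%, 49.2%, 50.9% and 38.1% over the 4 sizes of rise. Of the 9 falls of 16-fold or more, 6 were larger in the earlier interval, 2 in the later and 1 was not told apart. Change in both intervals was common, since 1077 rises and 702 falls were called the same way in both. These include genes with unequal intervals, such as Dcn and Lin28a, so the counts do not show a steady pace. In addition, 533 rises and 498 falls reached 2-fold over 4 days with no 2-fold change in either interval.

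**Figure D3:**
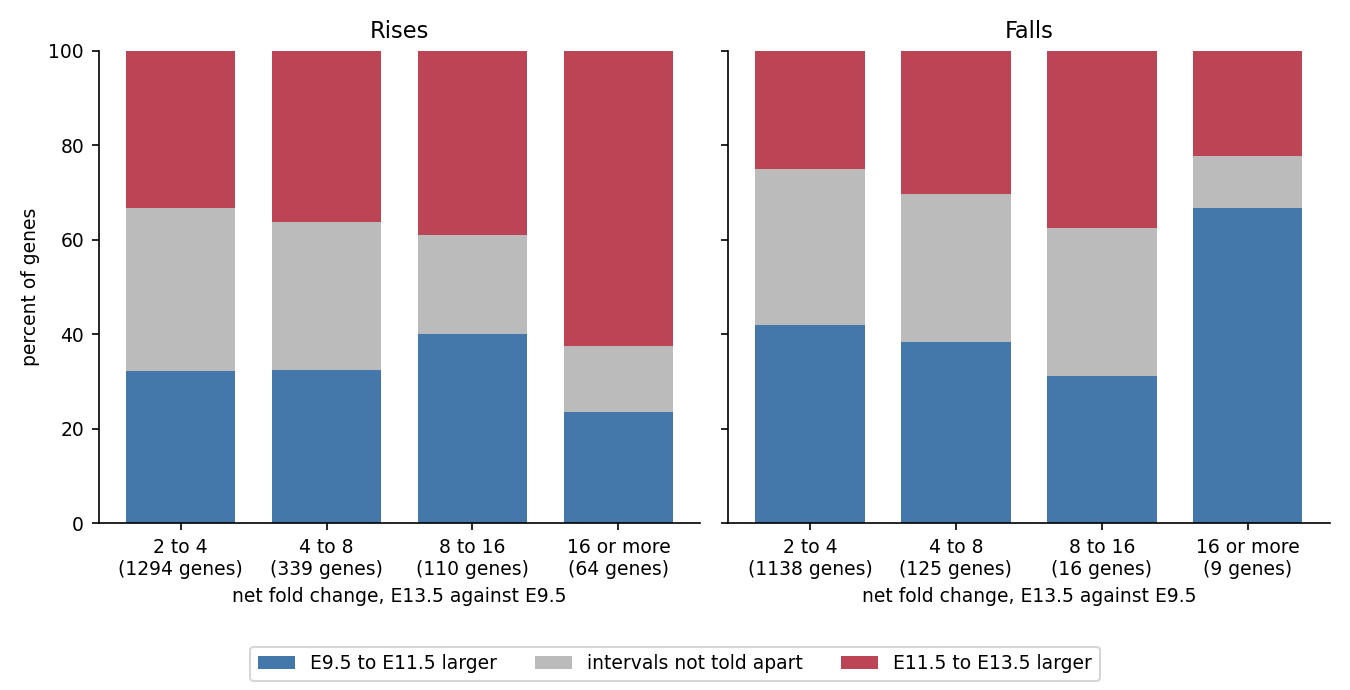
Percent of genes in each timing class (y axis) by the size of the net fold change (x axis, with the number of genes), for rises (left) and falls (right). The share larger in the later interval is 33.2%, 36.3%, 39.1% and 62.5% over the 4 sizes of rise, and the largest falls are only 9 genes.

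Several of the largest rises came mostly before E11.5. Dner, a Notch-related receptor of neurons, rose by 3.98 ± 0.18 in the earlier and 1.15 ± 0.18 in the later interval, Bcl11b by 4.23 ± 0.14 and 2.36 ± 0.14 and Ttr by 4.22 ± 0.23 and 2.4 ± 0.23 (adjusted p of the difference between intervals 3.23e-07, 2.23e-06 and 0.000954). On the second-brightest probe set this difference was not called for Dner (-0.67, adjusted p = 0.135) or Bcl11b (-0.03, adjusted p = 0.925). Col1a1, the main chain of collagen I, rose by 3.61 ± 0.15 and 1.38 ± 0.15, though on its other probe set the later minus the earlier change was 0.28 and not called. Nfia, the partner of Nfib, was early on its brightest probe set (3.23 ± 0.18 and 1.94 ± 0.18) and late on its second-brightest, where the later interval was larger by 2.63 (adjusted p = 4.2e-07). Chl1 rose by 2.95 ± 0.11 and 2.49 ± 0.11, and which interval was larger depended on the processing, from -0.64 (later minus earlier, without E11.5 sample 36) to 0.65 with its second-brightest probe set. Nfib (2.75 ± 0.14 and 3.48 ± 0.14), Col6a3 (2.58 ± 0.14 and 3.37 ± 0.14), Ogn (2.53 ± 0.16 and 3.25 ± 0.16) and Rtn1 (2.27 ± 0.18 and 3.13 ± 0.18) were larger in the later interval by a margin that lost its call when 1 E11.5 array was left out, with adjusted p of 0.0985 for Nfib without sample 33, 0.0533 for Col6a3 without sample 36, 0.186 for Ogn without sample 52 and 0.134 for Rtn1 without sample 33. The opioid precursor gene Penk, the collagen crosslinking enzyme gene Lox, the collagen Col1a2 and the tubulin regulator Stmn4 rose in both intervals, which were not told apart (Penk 2.13 ± 0.14 and 2.71 ± 0.14, Lox 2.45 ± 0.15 and 2.17 ± 0.15, Col1a2 1.99 ± 0.10 and 2.29 ± 0.10, Stmn4 2.45 ± 0.13 and 1.95 ± 0.13).

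Falls had the same range of shapes. Lin28a fell by 5.44 on the log2 scale before E11.5 and by 2.24 after, a share of at most 70.8% by E11.5, and Car4 reached at most 86.4%, Nr6a1 79.8% and Prtg 75.8%. Intervals were not told apart for Sall4 (52.9% by E11.5), the estrogen-regulated gene Greb1 (-1.84 ± 0.10 and -1.88 ± 0.10) and its relative Greb1l (-1.47 ± 0.13 and -1.79 ± 0.13). The other probe set of Greb1l had a net difference of only -0.575. Nor were they told apart for the polycomb-associated gene Epop (-1.93 ± 0.18 and -1.67 ± 0.18) and the homeobox gene Homez (-1.77 ± 0.17 and -1.33 ± 0.17), whose E13.5 level was under the lower quartile. Late falls were those of Mid1, a microtubule-associated ubiquitin ligase (0.18 ± 0.32 and -3.8 ± 0.32), with its other probe sets at a net -0.68 and at -0.18 (not called) and its late call lost on the second-brightest (later minus earlier -0.15, adjusted p = 0.697), the fibronectin domain gene Fndc3c1 (-0.90 ± 0.11 and -2.55 ± 0.11) and Zbtb16 (41% by E11.5).

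Genes of the growing early embryo fell as groups, and the groups differed in when. Of 18 measured early embryonic regulators, 13 fell, 1 rose and 4 were not called (median net difference -1.81, against 0.00677 over all genes), and their summed intensity went from 15659 to 19030 at E9.5, through 8402 to 9824, to 3087 to 3716. Of 38 ribosome biogenesis genes, 37 fell, 0 rose and 1 was not called (median -1.20), where 29.1% of all genes fell. Their median was -1.10 in the earlier interval and -0.05 in the later, and of the 27 that fell at least 2-fold, 22 were larger in the earlier interval, 1 in the later and 4 were not told apart. Nolc1, a nucleolar chaperone of ribosome assembly, was at 9.66 to 10.17 (median 9.98) at E9.5, 7.19, 7.53, 7.64 and 7.74 at E11.5 and 7.52 to 7.7 (median 7.63) at E13.5, a net difference of -2.3 ± 0.10 (limma adjusted p = 3.39e-14). Its whole fall had passed by E11.5, as had that of Rrp12, a ribosome export factor (-2.17 ± 0.14 and 0.18 ± 0.14), while the nucleolar helicase gene Ddx21 fell in both intervals (-1.16 ± 0.09 and -0.98 ± 0.09).

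DNA replication genes fell almost as uniformly, over both intervals. Of 40 measured, 39 fell, 0 rose and 1 was not called (median -1.16), with medians of -0.67 in the earlier and -0.46 in the later interval, and of the 26 falls of at least 2-fold 5 were larger in the earlier, 9 in the later and 12 were not told apart. Cdc6, which loads the replicative helicase, was at 9.44 to 10.01 (median 9.7) at E9.5, 8.15, 8.53, 8.95 and 9.05 at E11.5 and 6.49 to 6.79 (median 6.59) at E13.5, a net difference of -3.09 ± 0.13 (adjusted p = 2.54e-14), and fell more in the later interval. Chaf1b, of the histone chaperone CAF-1, had a net difference of -1.98 ± 0.08 (-1.6 ± 0.09 and -0.38 ± 0.09), against -0.28 on its other probe set, and the clamp loader gene Rfc4 one of -2.01 ± 0.09 (-0.90 ± 0.10 and -1.11 ± 0.10). Of 35 mitotic genes 33 fell, 0 rose and 2 were not called (median -1.09), and the 21 falls of at least 2-fold were spread over the classes (9 earlier, 8 later, 4 not told apart). The mitotic kinesin Kif20a (-1.62 ± 0.14 and -0.46 ± 0.14) and the checkpoint kinase Bub1 (-0.59 ± 0.09 and -1.31 ± 0.09) show the early and the late shape. Tpx2, a spindle assembly factor, was at -2.02 ± 0.08 with 1 of its 3 other probe sets called in the opposite direction.

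Promoters of 3 replication genes are shown for a short element that part of this list carries. Within 250 bases before and 50 after the start, in the RefSeq promoter table of build GRCm38.p6, the letters TTTCGCGC or TTTGGCGC, a form of the site that E2F factors bind, occurred on either strand in 1.3% of the 11791 measured genes with 1 listed start and in 8 of 28 genes (28.6%) of the replication list. They were in 1.64% of genes with an earlier fall of at least 2-fold, 3.46% of those with a later fall, 3.82% of falls not told apart, and 1.76%, 0.5% and 0.3% of the like classes of rises. The 150 bases before the start are printed 5′ to 3′ on the gene's strand, with matches in capitals. Those of Mcm6, of the replicative helicase (chr1:128359706-128359855, minus strand), hold 3 matches, the first 2 overlapping, those of Orc1, of the origin recognition complex (chr4:108579304-108579453, plus strand), hold 1, and those of the clamp loader gene Rfc3 (chr5:151651209-151651358, minus strand) hold 1.
Mcm6: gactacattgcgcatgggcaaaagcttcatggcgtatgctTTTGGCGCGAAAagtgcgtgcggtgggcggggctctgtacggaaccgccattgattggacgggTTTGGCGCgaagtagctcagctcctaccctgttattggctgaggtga
Orc1: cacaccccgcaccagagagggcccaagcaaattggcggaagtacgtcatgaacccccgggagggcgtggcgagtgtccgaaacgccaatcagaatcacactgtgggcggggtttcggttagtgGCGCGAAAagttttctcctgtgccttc
Rfc3: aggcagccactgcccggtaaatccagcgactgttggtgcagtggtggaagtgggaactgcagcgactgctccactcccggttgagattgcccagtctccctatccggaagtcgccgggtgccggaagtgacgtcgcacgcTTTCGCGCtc
These genes, shown for their matches and chosen after their values were seen, had net differences of -1.25 ± 0.07 (Mcm6), -1.18 ± 0.10 (Orc1) and -1.32 ± 0.08 (Rfc3), limma adjusted p at most 1.55e-09. A match describes letters and not binding.

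Genes of glucose metabolism moved in both directions. Of 17 glycolysis genes, 10 fell, 6 rose and 1 was not called (median -0.85). The neuronal-type glucose transporter gene Slc2a3 was at 11.53 to 11.82 (median 11.73) at E9.5, 8.82, 9.12, 9.31 and 9.33 at E11.5 and 9.14 to 9.57 (median 9.31) at E13.5, a net difference of -2.36 ± 0.09 (limma adjusted p = 1.15e-14), a fall complete by E11.5, and the lactate exporter gene Slc16a3 was at 7.06 to 7.8 and 4.39 to 4.76 (-2.92 ± 0.12, adjusted p = 1.79e-14). The heart-type lactate dehydrogenase gene Ldhb rose, from 7.96 to 8.96 to 10.29 to 10.48 (2.0 ± 0.14), as did its 3 other probe sets. Aldoc, the brain aldolase, rose by 4.1 ± 0.13 on its brightest probe set and was at -0.03, not called, on its other, so its direction rests on the probe set. Of 32 oxidative phosphorylation genes 20 rose, 4 fell and 8 were not called (median 0.28, and 15 up and 7 down with median centring). Among the rises were Uqcrc1 of complex III (1.38 ± 0.07) and Cox8a of complex IV (1.66 ± 0.10, with 1 of its other probe sets up and 1 not called). The falls included another subunit gene of complex III, whose other probe set was called the opposite way. Of 23 cytosolic ribosomal proteins 6 rose, 6 fell and 11 were not called over the whole span, but 2 rose and 15 fell in the earlier interval (median -0.31) and 16 rose and 2 fell in the later (median 0.26), and the net median of 0.05 was -0.10 under either other scaling. Of 18 cholesterol synthesis genes 8 fell, 4 rose and 6 were not called, from the isomerase gene Idi1 (-1.69 ± 0.09) to the reductase gene Tm7sf2 (1.58 ± 0.14). Over all genes 32.7% rose and 29.1% fell, and 61.8% were called in either direction.

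Neuronal structure and release genes rose on a broad front. Of 30 pan-neuronal cytoskeleton and RNA-binding genes, 29 rose, 0 fell and 1 was not called (median 2.45), where 32.7% of all genes rose. Of the 25 that rose at least 2-fold, 16 were larger in the earlier interval, 3 in the later and 6 were not told apart. Stmn2, a tubulin-binding protein of growth cones, was at 6.27 to 7.62 (median 6.93) at E9.5, 9.91, 10.13, 10.23 and 10.34 at E11.5 and 11.76 to 11.84 (median 11.80) at E13.5, a net difference of 4.87 ± 0.19 (limma adjusted p = 7.13e-15), and its relative Stmn3 rose by 4.28 ± 0.12. Of 26 synaptic genes 25 rose and 1 fell (median 1.61). Rab3c, a vesicle GTPase, was at 3.59 to 4.39 (median 3.89) at E9.5, 6.59, 6.64, 6.77 and 7.0 at E11.5 and 8.73 to 8.84 (median 8.78) at E13.5, a net difference of 4.86 ± 0.11 (adjusted p = 5.12e-18), with 1 of 4 other probe sets not called. The synaptotagmin Syt4 rose by 4.1 ± 0.10 and the endocytic adaptor gene Snap91 by 3.78 ± 0.15 (0.33 on its other probe set). Homer1, a scaffold of the receiving side of the synapse, was the member that fell (-0.47 ± 0.07), as did its 5 other probe sets.

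Transmitter and adhesion genes followed. Of 18 GABAergic lineage genes 17 rose, 0 fell and 1 was not called (median 1.80), and of 17 glutamate and monoamine genes 11 rose, 0 fell and 6 were not called (median 0.65). Gad1, which makes GABA, was at 2.81 to 3.32 (median 3.0) at E9.5, 6.07, 6.27, 6.38 and 6.38 at E11.5 and 6.73 to 7.29 (median 7.14) at E13.5, a net difference of 4.03 ± 0.10 (adjusted p = 1.42e-17), and Slc17a6, which loads glutamate into vesicles, was at 2.81 to 4.17 (median 3.52) at E9.5, 6.63, 6.87, 7.02 and 7.03 at E11.5 and 7.53 to 7.87 (median 7.75) at E13.5, a net difference of 4.25 ± 0.16 (adjusted p = 3.08e-15). Gad1 had reached 79.9% of its net rise by E11.5 and Slc17a6 80.2%, and both rises are lower limits because the E9.5 mean was under the lower quartile. The forebrain homeobox gene Lhx8 had its whole rise by E11.5 (3.0 ± 0.27, then -0.20 ± 0.27). The calcium buffer gene Calb1 rose by 3.2 ± 0.12 on 1 probe set while its 3 others, at 0.04 to 0.16, were not called. Gria2, an AMPA receptor subunit, rose by 4.78 ± 0.16 and Gria4 by 1.76 ± 0.11. Of the 2 other probe sets of Gria4, at 0.04 and 0.63, 1 was not called. The brightest probe set of Gria2 was late (1.55 ± 0.18 and 3.23 ± 0.18) and its second-brightest early (later minus earlier -1.99, adjusted p = 7.28e-08). Of 30 axon guidance and adhesion genes 26 rose, 2 fell and 2 were not called (median 0.85), led by the adhesion molecules Ncam1 (3.95 ± 0.10), Cntn2 (3.36 ± 0.12) and L1cam (3.29 ± 0.13). Of the 6 other probe sets of Ncam1 4 rose, and of the 3 of Cntn2 2 rose, the rest being not called. The other probe set of L1cam rose by only 0.525.

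Transcription factors of new neurons rose first and then mostly fell. Of 28 proneural and early neuronal factors 20 were higher at E13.5 than at E9.5, 3 were lower and 5 were not called (median 1.93). In the earlier interval 25 rose and 0 fell, and in the later, which spans the change of labelling kit, 8 rose and 15 fell. Nhlh2, a helix-loop-helix factor of newborn neurons, was at 3.91 to 6.27 (median 5.54) at E9.5, 9.45, 9.47, 9.51 and 9.73 at E11.5 and 7.38 to 7.78 (median 7.54) at E13.5, so that its net rise of 2.27 ± 0.31 (adjusted p = 2.07e-06) hid a peak. E9.5 samples 13 and 15 were the lowest pair for Nhlh2, as for Dcx, Stmn2, Tubb3, Lhx8, Id4 and Fabp7, and without them the net differences were 1.66 (Nhlh2), 3.42 (Dcx), 4.55 (Stmn2), 2.46 (Tubb3), 2.34 (Lhx8), 1.90 (Id4) and 2.56 (Fabp7), each still called. Bcl11a, the relative of Bcl11b, rose by 3.83 ± 0.16 and then by 0.81 ± 0.16. Neurod6, of cortical projection neurons, was 1 of 2 among the 17 members with a 2-fold rise whose later change was larger, at 2.59 on all E9.5 arrays, 2.81, 2.81, 2.81 and 3.0 at E11.5 and 6.95 to 7.42 (median 7.31) at E13.5, a net difference of 4.68 ± 0.08 (adjusted p = 2.65e-20, a lower limit). Neurog1 and Neurod4, proneural factors of sensory ganglia and hindbrain, ended lower, Neurog1 with a net difference of -2.27 ± 0.11 and Neurod4 with one of -1.81 ± 0.17 after a rise of 0.80 ± 0.19, with 1 of the 2 other probe sets of Neurod4 not called. Of 17 cranial sensory ganglion markers 7 rose, 5 fell and 5 were not called, where 32.7% of all genes rose and 29.1% fell.

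Progenitor genes were mixed and glial lineage genes mostly rose. Of 21 neuroepithelial and radial progenitor genes 12 rose and 9 fell (median 0.25, and 9 of each with median centring), and the intervals ran against each other, with 14 up and 3 down in the earlier and 5 up and 15 down in the later. The helix-loop-helix inhibitor Id4 was at 8.13 to 9.72 (median 9.07) at E9.5, 11.90, 11.98, 12.03 and 12.09 at E11.5 and 11.14 to 11.30 (median 11.23) at E13.5, a net difference of 2.24 ± 0.20 (adjusted p = 2.45e-09), and the radial glial lipid carrier Fabp7 rose by 2.83 ± 0.15. Prom1, an apical membrane protein of the neuroepithelium, fell (-1.27 ± 0.08), as did the nuclear receptor Nr2e1 (-1.19 ± 0.19). Hes6, an inhibitor of Hes1, rose by 1.52 ± 0.09. Of 22 glial lineage genes 17 rose, 2 fell and 3 were not called (median 1.74), and the nuclear factor I genes led them. Nfix was at 4.0 to 4.7 (median 4.13) at E9.5, 5.21, 5.25, 5.73 and 6.13 at E11.5 and 9.27 to 9.81 (median 9.55) at E13.5, a net difference of 5.31 ± 0.15 (adjusted p = 5.06e-17), with 2 of its 4 other probe sets not called.

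Regional patterning genes fell on balance, with 18 of 29 down, 7 up and 4 not called (median -0.66). The eye field factor Six6 was at 7.32 to 7.67 (median 7.5) at E9.5, 4.86, 5.21, 5.88 and 6.0 at E11.5 and 4.59 to 5.0 (median 4.67) at E13.5, a net difference of -2.78 ± 0.15 (limma adjusted p = 1.13e-12), mostly an early fall. The midbrain-hindbrain factor En2 fell later (-0.83 ± 0.13 and -1.61 ± 0.13), and the growth factor Fgf17 of the same boundary had a net difference of -2.03 ± 0.16. Gbx2, of the hindbrain side, fell and then rose (-0.81 ± 0.17 and 1.58 ± 0.17). Of 17 HOX genes 12 rose, 1 fell and 4 were not called (median 0.50), and of the 6 that rose at least 2-fold 5 were larger in the later interval. Hoxb5 was at 3.59 to 3.91 (median 3.81) at E9.5, 3.46, 3.46, 3.46 and 3.91 at E11.5 and 5.7 to 6.62 (median 6.29) at E13.5, a net difference of 2.46 ± 0.12 (adjusted p = 3.62e-13), Hoxc4 rose by 2.58 ± 0.15 and Hoxd3 by 1.87 ± 0.13. HOX genes mark the hindbrain and trunk, and whether the tissue taken reached further back at E13.5 was not tested.

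**Figure D4:**
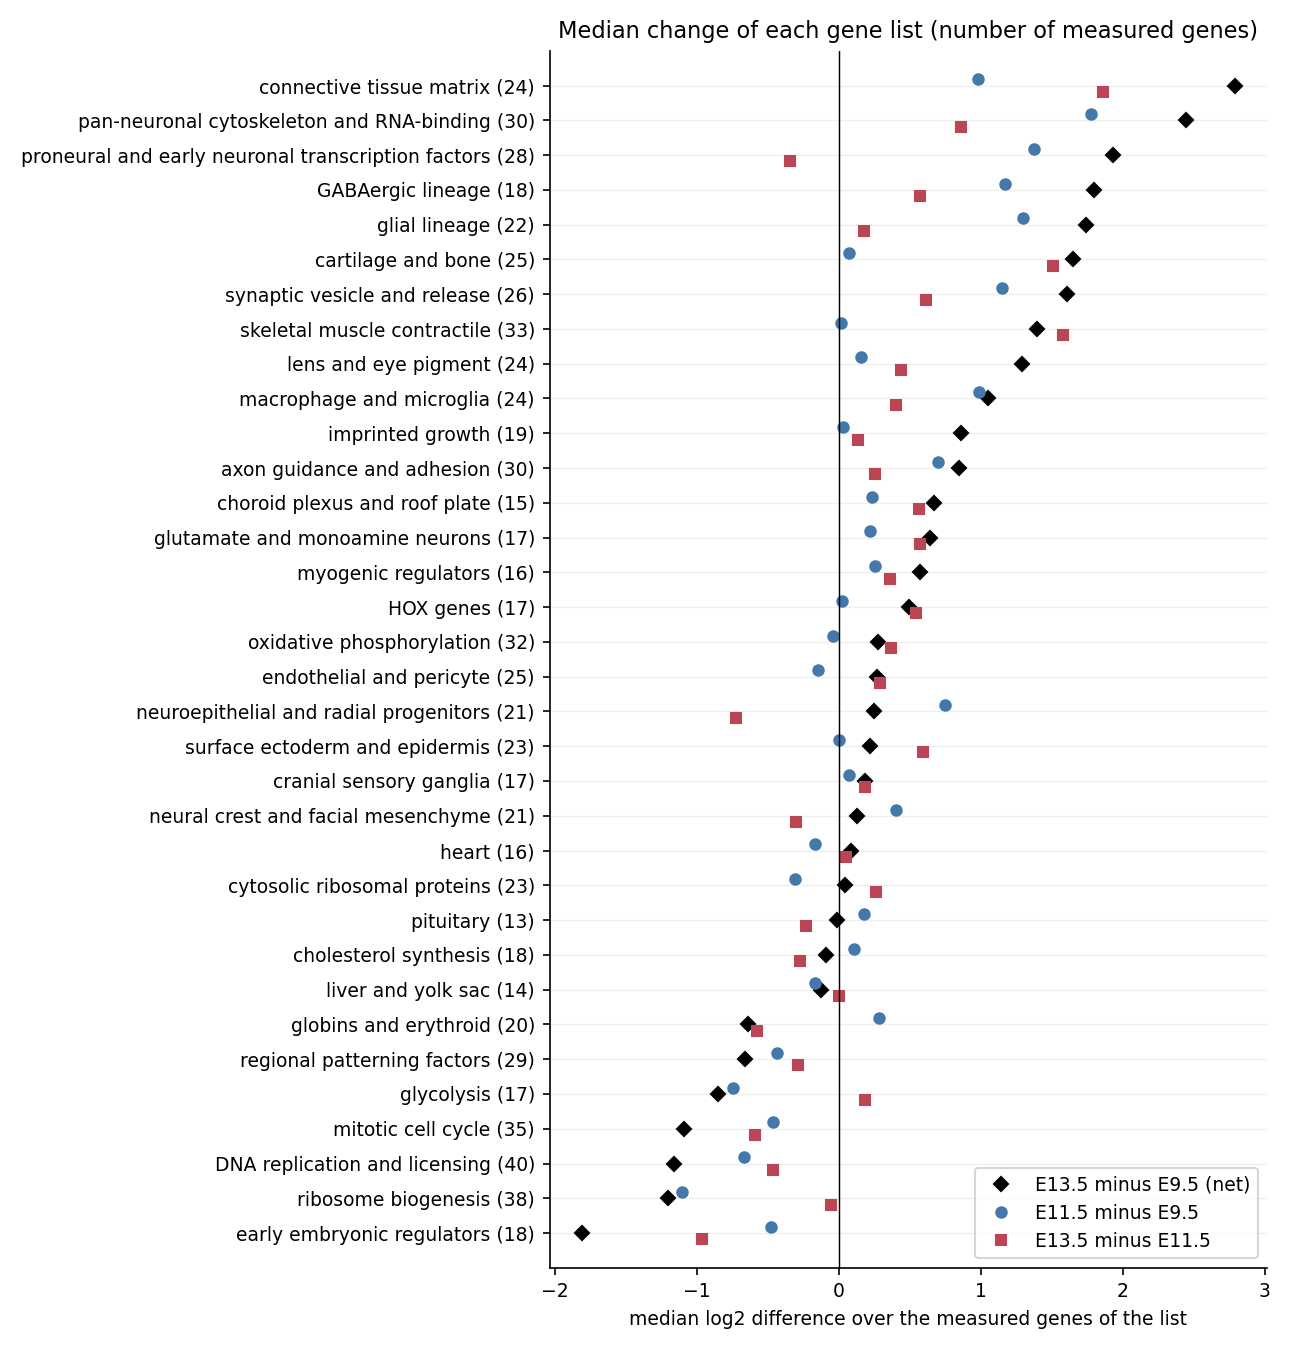
Median log2 difference over the measured genes of each of the 34 gene lists (number of genes in brackets), net over 4 days (black diamonds), in the earlier interval (blue circles) and in the later interval (red squares). Ribosome biogenesis moved in the earlier interval (median -1.10, then -0.05), skeletal muscle in the later (0.01, then 1.58), and proneural factors up and then down (1.38, then -0.34).

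Skeletal muscle genes rose mainly in the later interval. Of 33 contractile genes 29 rose, 1 fell and 3 were not called (median 1.39), their median was 0.01 in the earlier interval and 1.58 in the later, and of the 21 that rose at least 2-fold 0 were larger in the earlier interval and 20 in the later. The summed intensity of the list was 1665 to 2206 at E9.5, 1813 to 2026 at E11.5 and 9595 to 13022 at E13.5. The troponin T gene Tnnt1 was at 4.64 to 5.32 (median 5.19) at E9.5, 4.09, 4.09, 4.46 and 5.04 at E11.5 and 8.97 to 9.6 (median 9.43) at E13.5, a net difference of 4.28 ± 0.15 (limma adjusted p = 1.79e-15), the skeletal actin Acta1 rose by 4.36 ± 0.16 and the embryonic myosin Myh3 by 5.33 ± 0.14. Actn3, of fast fibres, was the member that fell (-0.72 ± 0.12). Of 16 myogenic regulators 10 rose, 2 fell and 4 were not called. Myog, the factor that starts muscle differentiation, was at 3.32 to 4.0 (median 3.59) at E9.5, 3.91, 4.25, 4.25 and 4.52 at E11.5 and 7.28 to 7.79 (median 7.69) at E13.5, a net difference of 4.01 ± 0.11 (adjusted p = 7.46e-17), and the fusion gene Mymk rose by 1.38 ± 0.11. Myod1 rose by 1.89 ± 0.13 on 1 probe set and by 0.21, not called, on the other. Eya1, a cofactor of homeodomain proteins, had a net difference of -0.77 ± 0.10, with 1 of 2 other probe sets called the opposite way. Few heart markers moved. Of 16 heart genes 3 rose, 1 fell and 12 were not called (3 up and 3 down with median centring), and their summed intensity was 267 to 327 at E9.5 and 337 to 380 at E13.5.

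The windows of 4 of these muscle genes are shown for the short elements near their starts. The letters TATAAA occurred in 10.2% of the 300-base windows of all genes with 1 listed start and in 6 of 24 (25%) of the contractile list, the letters CAGCTG, an E-box of the kind that myogenic factors bind, in 16.1% and in 12 of 24 (50%), and the CArG box, which serum response factor binds, in 1.36% and in 2 of 24 (8.33%), on either strand. CAGCTG was also in 60% of the macrophage list, and TATAAA in 70% of the pituitary, 40% of the heart and 31.6% of the lens and pigment list. The MEF2 box was in 2.02% of all windows, in 4 of 24 (16.7%) of the contractile list and in 4.5% of genes with a later rise of at least 2-fold, against 1.17% of those with an earlier rise. It was also in 16.7% of the myogenic regulator and 10.7% of the mitotic list, and the CArG box was in 20% of the heart list. Capitals mark the CArG box in Actc1 (chr2:114052876-114053025, minus strand) and Acta1 (chr8:123894776-123894925, minus strand) and TATAAA in Tnnt1 (chr7:4515976-4516125, minus strand) and Myh3 (chr11:67078150-67078299, plus strand), in the 150 bases before each start, from RefSeq, build GRCm38.p6. Acta1 also holds TATAAA, beginning at -7 from the start, which is left in lower case.
Actc1: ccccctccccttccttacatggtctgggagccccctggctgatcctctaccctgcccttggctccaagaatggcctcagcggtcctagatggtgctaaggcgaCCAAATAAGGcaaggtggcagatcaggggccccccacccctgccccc
Acta1: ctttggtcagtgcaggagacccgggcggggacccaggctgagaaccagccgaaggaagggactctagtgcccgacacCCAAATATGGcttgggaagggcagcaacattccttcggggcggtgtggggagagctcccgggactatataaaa
Tnnt1: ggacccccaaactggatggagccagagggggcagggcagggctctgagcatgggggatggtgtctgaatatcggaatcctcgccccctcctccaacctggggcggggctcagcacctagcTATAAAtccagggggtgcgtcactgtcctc
Myh3: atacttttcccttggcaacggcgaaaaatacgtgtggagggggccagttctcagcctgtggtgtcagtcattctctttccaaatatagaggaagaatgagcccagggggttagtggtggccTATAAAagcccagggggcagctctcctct
The median number of CpG in a window was 7 in the contractile list, 4 in the connective matrix list and 22.5 in the replication list, against 17 over all genes. It was also low in the cartilage and bone (6), lens and pigment (4), globin and erythroid (4) and macrophage (5) lists.

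Cartilage, bone and connective tissue rose with muscle, with the matrix also up in the earlier interval. Of 25 cartilage and bone genes 20 rose, 2 fell and 3 were not called (median 1.65), and all 14 that rose at least 2-fold were larger in the later interval. Cnmd, which keeps cartilage free of vessels, was at 3.32 to 4.17 (median 3.59) at E9.5, 3.81, 3.81, 3.81 and 3.91 at E11.5 and 9.04 to 9.57 (median 9.26) at E13.5, a net difference of 5.62 ± 0.12 (limma adjusted p = 1.03e-18). The collagen IX chain Col9a3 rose by 3.8 ± 0.09, with 1 of 2 other probe sets not called, and Ibsp, a bone matrix protein, by 3.7 ± 0.16, against 0.92 on its other. The part that the amount of non-neural tissue in each head had in these muscle, cartilage and matrix sums was not tested. Hapln1, the link protein of hyaluronan, fell early (-1.94 ± 0.17, then 0.43 ± 0.17). All 24 connective tissue matrix genes rose (median 2.79), 22 of them in the earlier interval and 22 in the later, and their summed intensity was 6925 to 8443, 13100 to 14407 and 43210 to 48266. Of 21 neural crest and facial mesenchyme genes 10 rose, 3 fell and 8 were not called, and with median centring 9 rose and 7 fell. The helix-loop-helix factor Twist2 rose by 2.44 ± 0.09, and Hand2 by 2.5 ± 0.11 on 1 probe set with both others called the opposite way.

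Blood, vessels and macrophages each had a pattern of their own. Hbb-bh1, an embryonic beta-like globin of primitive red cells, was at 13.51 to 13.79 (median 13.62) at E9.5, 12.39, 13.19, 13.43 and 13.54 at E11.5 and 8.37 to 9.37 (median 8.71) at E13.5, a net difference of -4.85 ± 0.18 (limma adjusted p = 3.67e-15), and its other probe sets fell by 4.52 and 4.75 on the log2 scale. The other embryonic globins rose by E11.5 and fell after it, with net differences that were not called. Hbb-y was at 13.21 to 13.36 at E9.5, 14.00 to 14.10 at E11.5 and 13.30 to 13.51 at E13.5 (0.75 ± 0.07, then -0.63 ± 0.07, net 0.12 ± 0.06, adjusted p = 0.104, called under 5 alternatives in the same direction, and at -0.03 with median centring) and Hba-x at 11.78 to 12.67, 12.43 to 13.15 and 11.64 to 12.36 (0.60 ± 0.17, then -0.93 ± 0.17, net -0.33 ± 0.15, adjusted p = 0.0641, called under 7 alternatives). The adult alpha globin Hba-a2 rose from 4.46 to 5.73 to 7.79 to 7.99 (2.6 ± 0.18). Globin paralogs share much sequence, and how far probes take up each other's message was not tested. Hemgn, a nuclear protein of red cell precursors, was at 6.36 to 6.91 (median 6.76) at E9.5, 6.77, 8.11, 8.48 and 9.07 at E11.5 and 2.59 to 3.32 (median 2.9) at E13.5, a net difference of -3.8 ± 0.25 (adjusted p = 2.26e-11, a lower limit). Of 20 globin and erythroid genes 12 fell, 4 rose and 4 were not called, where 29.1% of all genes fell and 32.7% rose.

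Vessel markers were mixed, with 12 of 25 endothelial and pericyte genes up, 5 down and 8 not called (median 0.27). Over all genes 32.7% rose and 29.1% fell. The largest rises were those of the pericyte gene Rgs5, at 3.17 to 3.59 (median 3.52) at E9.5, 4.86, 5.0, 5.04 and 5.13 at E11.5 and 6.93 to 7.47 (median 7.28) at E13.5, a net difference of 3.79 ± 0.10 (adjusted p = 2.32e-17), the proteoglycan Cspg4 at 1.77 ± 0.08 and the thyroid hormone transporter gene Slco1c1 at 1.61 ± 0.09, while the lymphatic receptor gene Flt4 fell (-1.42 ± 0.11). Of 24 macrophage and microglia genes 19 rose, 0 fell and 5 were not called (median 1.05). Csf1r, their growth factor receptor, was at 4.32 to 5.21 (median 4.95) at E9.5, 7.58, 7.69, 7.75 and 8.04 at E11.5 and 8.37 to 8.91 (median 8.7) at E13.5, a net difference of 3.83 ± 0.14 (adjusted p = 4.44e-15), with 76.2% of its rise by E11.5, and the clotting factor gene F13a1 of resident macrophages rose by 3.15 ± 0.09, mostly early (2.65 ± 0.10 and 0.49 ± 0.10). The 2 other probe sets of Csf1r rose by only 0.67 and 1.46. The complement gene C1qa rose in both intervals (1.0 ± 0.11 and 1.54 ± 0.11).

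Epithelial genes moved in both directions. Krt18, a keratin of simple epithelia, was at 7.85 to 8.72 (median 8.39) at E9.5, 5.7, 5.86, 5.86 and 6.11 at E11.5 and 6.6 to 6.85 (median 6.7) at E13.5, a net difference of -1.63 ± 0.12 (limma adjusted p = 1.14e-10) and Cldn6, an embryonic claudin, had a net difference of -1.36 ± 0.09, both mainly in the earlier interval. Krt18 then rose in the later interval (0.83 ± 0.13, adjusted p = 1.77e-05). Keratins of stratified epidermis named here rose in the later interval, with Krt14 at 4.17 to 4.52 (median 4.39) at E9.5, 4.25, 4.32, 4.39 and 4.59 at E11.5 and 7.69 to 7.98 (median 7.81) at E13.5, a net difference of 3.44 ± 0.08 (adjusted p = 6.66e-18), Krt15 at 3.61 ± 0.10 and Krt5 at 2.51 ± 0.13. Of the 2 other probe sets of Krt14 1 rose and 1 was not called. Of the 23 genes of the list 11 rose, 6 fell and 6 were not called, where 32.7% of all genes rose and 29.1% fell.

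**Figure D5:**
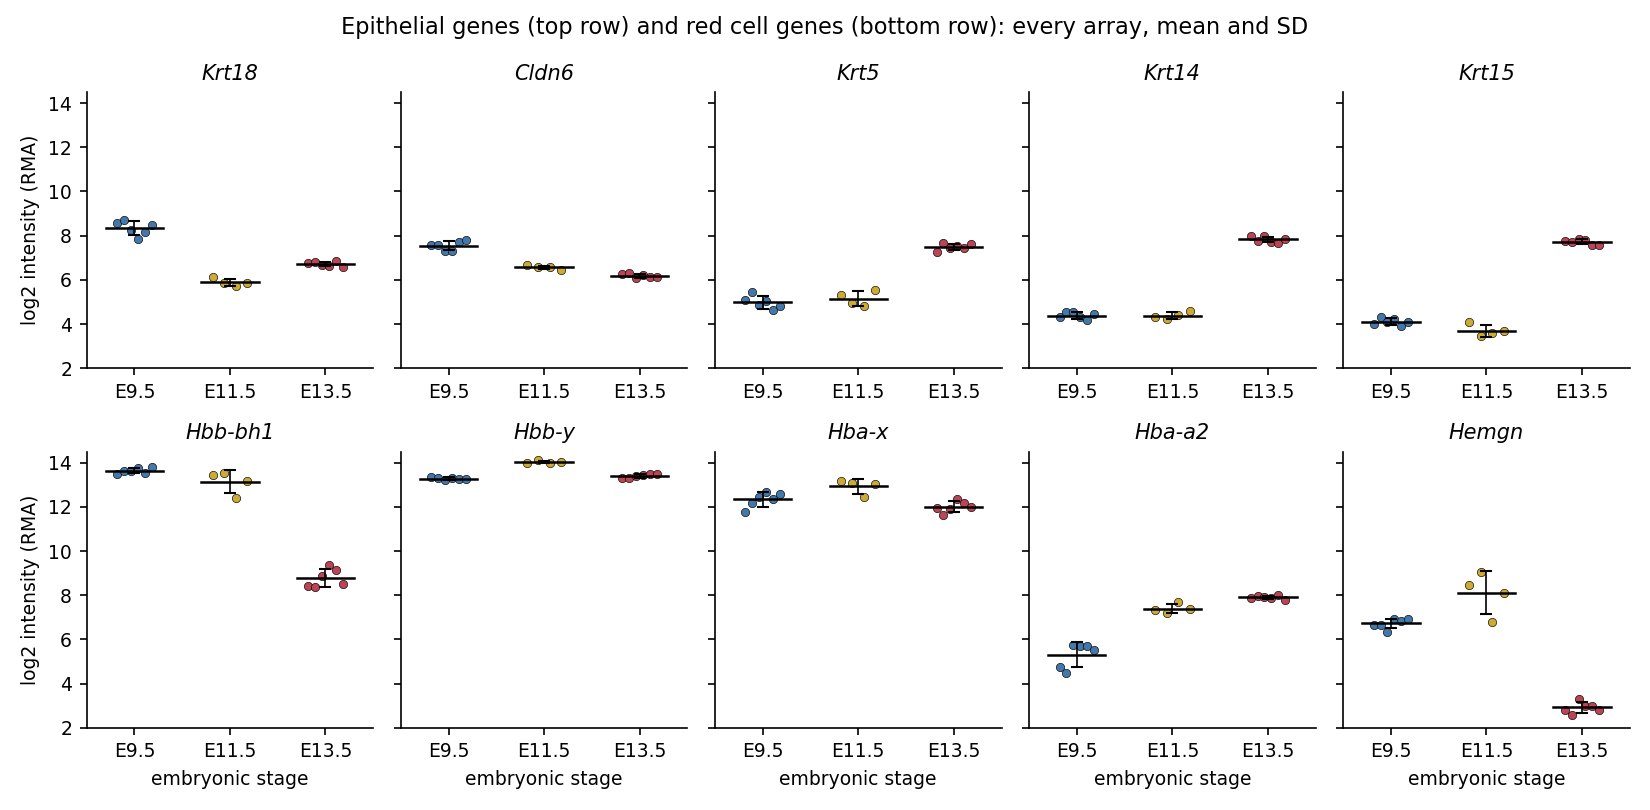
Log2 intensity of epithelial genes (top row) and red cell genes (bottom row) on every array of the 3 stages; points are arrays, lines are means and bars are SD. Krt18 and Cldn6 fell while Krt5, Krt14 and Krt15 stayed low at E11.5 and were high at E13.5, and Hbb-bh1 fell while Hbb-y and Hba-x kept overlapping levels at E9.5 and E13.5.

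Eye, choroid plexus and pituitary genes completed the tissues beside the brain wall. Of 24 lens and pigment genes 17 rose, 1 fell and 6 were not called (median 1.29), and of the 13 that rose at least 2-fold 10 were larger in the later interval. Lens crystallins led them, with Cryba1 at 3.59 to 4.0 (median 3.86) at E9.5, 3.91, 4.52, 4.64 and 4.76 at E11.5 and 8.9 to 9.43 (median 9.11) at E13.5, a net difference of 5.29 ± 0.12 (limma adjusted p = 4.36e-18), the chaperone crystallin Cryaa at 4.41 ± 0.14 and Cryga at 3.99 ± 0.10, a lower limit. Of 15 choroid plexus and roof plate genes 10 rose, 4 fell and 1 was not called. The water channel gene Aqp1 rose late (0.42 ± 0.09 and 2.59 ± 0.09), and Lmx1a, which specifies the roof plate, had a net difference of -0.55 ± 0.10, ending under the lower quartile. Of 13 pituitary genes 10 were not called. Hesx1, an early marker of the pouch and anterior neural plate, had a net difference of -2.05 ± 0.14 and Pitx1, of the oral ectoderm, rose by 1.1 ± 0.13. Of 14 liver and yolk sac markers, Ttr included, 5 fell, 2 rose and 7 were not called, where 29.1% of all genes fell and 32.7% rose.

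Of 19 imprinted growth genes, 11 rose, 5 fell and 3 were not called (median 0.86), where 32.7% of all genes rose and 29.1% fell. Cdkn1c, a cyclin-dependent kinase inhibitor, was at 9.14 to 9.97 (median 9.66) at E9.5, 10.68, 10.69, 10.75 and 10.76 at E11.5 and 12.36 to 12.49 (median 12.42) at E13.5, a net difference of 2.82 ± 0.12 (limma adjusted p = 3.06e-14), opposite to the replication genes. The growth factor Igf2 rose by 2.22 ± 0.11, against 0.46 on its other probe set, and Nap1l5 by 2.52 ± 0.13, while the retrotransposon-derived gene Peg10 had a net difference of -2.26 ± 0.09, a lower limit.

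A comparison of E13.5 with E9.5 alone misses genes that went up and came down. At least a 2-fold called change in each interval, in opposite directions, was found for 261 genes, 175 up and then down and 86 down and then up, and for 243 of them the net change was under 2-fold and for 143 it was not called. Among genes picked from these after their values were seen, the Notch target Hes5 rose by 1.64 ± 0.11 and fell to a net -0.57 ± 0.10, and Myc, a driver of growth, changed by -2.1 ± 0.12 and recovered to a net -0.47 ± 0.10. The guidance cue Sema3f (4.26 ± 0.14, then -3.64 ± 0.14) and the kinase subunit gene Pik3cd (4.89 ± 0.20, then -4.1 ± 0.20) swung furthest of those named. Their other probe sets had net differences of -0.13 to 0.75 (Sema3f) and -0.06 to 0.32 (Pik3cd). A net difference cannot show a swing, and whether these probe sets peaked at E11.5 was not tested. Overshoot was also seen within called net changes, since the change by E11.5 exceeded the net change for 167 of the 1807 rises and 195 of the 1288 falls, with the return after E11.5 called for 67 and 80 of them.

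Probe sets of a gene did not always move together. Of the 1138 rises of at least 2-fold with other probe sets, 801 had at least 1 other called the same way and 190 at least 1 called the opposite way, and of 775 such falls 654 and 79. Sizes differed as well, with others at 1.01 for Gad1 (4.03 on the brightest), 0.66 to 2.05 for Rgs5 (3.79) and -0.345 for Flt4 (-1.42). The rises of Aqp1, Calb1, Hoxd3, Ibsp, Mymk, Myh3, Rgs5 and Slco1c1 began under the lower quartile too and are lower limits, as is the fall of Hesx1, which ended there.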

How the data were processed

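RNA from 16 mouse head samples (6 at E9.5, 4 at E11.5, 6 at E13.5) was measured on 1 array each. The deposited values are intensities on a linear scale, normalized by the authors with RMA per the submitters' processing notes, with the version not given there. They run from 4 to 26979 with a median of 32 on every array, and log2 was taken here. Of 45101 probe sets, 64 controls were set aside, 34945 name 1 gene, 932 several and 9160 none, and 204 identifiers were not matched. Each gene took its probe set with the highest mean log2 value over 16 arrays. Arrays carry no read depth, and their number limits the precision.

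All 16 arrays were fitted with limma 3.58.1 in R 4.3.3 (lmFit, eBayes), with stage means and contrasts for the net change, both intervals and the later minus the earlier interval. Benjamini-Hochberg adjustment ran over all 18193 genes, a call is an adjusted p under 0.05, and errors (±) are standard errors. The fit was tested on simulated data. Tables and plots used Python 3.11.15, pandas 2.3.3 and matplotlib 3.10.9. Promoter windows came from RefSeq, GRCm38.p6, and 14452 genes matched.

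The members and the 34 gene lists were chosen with earlier results of these data known. Named genes are part of those a rule took: the 12 largest changes each way, 6 per timing class, and 3 per list plus 2 against its direction. Marker, promoter and opposite-direction genes were chosen after their values were seen. There were 28 alternatives, covering normalization, probe set choice, low values, variance, array weights, title prefix and left-out arrays. The count of unused sample columns was 0.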

Additional observations from a re-analysis of the deposited data

Results flagged for a closer look

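In 25 of the 420 groups formed by a named gene and a stage, 1 array stood apart from the others of its stage by Dixon's test, and chance flags about 1 in 20 groups. Each log2 intensity is given against that of the nearest array. On E9.5 sample 19, Lrp2 was lowest at 7.26 against 7.59 and Pitx1 was lowest at 5.04 against 5.73. On E9.5 sample 22, Myh3 was lowest at 3.17 against 3.46. On E9.5 sample 24, Nfia was lowest at 4.00 against 4.86. On E11.5 sample 33, Cnmd was highest at 3.91 against 3.81, Neurod6 was highest at 3.00 against 2.81 and C1qa was highest at 5.21 against 4.91. On E11.5 sample 36, Ddx21 was highest at 8.87 against 8.62. On E11.5 sample 51, Sall4 was lowest at 6.82 against 7.20, Homez was lowest at 4.25 against 4.95, Sox2 was lowest at 10.69 against 11.02, Pax6 was lowest at 8.41 against 8.91, Hoxb5 was highest at 3.91 against 3.46, Kif20a was lowest at 7.59 against 8.30 and Hba-x was lowest at 12.43 against 13.04. On E11.5 sample 52, Cryga was lowest at 2.81 against 3.00. On E13.5 sample B62E7K, Chl1 was lowest at 8.26 against 8.44, Sox2 was lowest at 9.65 against 9.92, Calb1 was lowest at 6.34 against 6.41, Cox8a was highest at 11.51 against 11.31 and Cspg4 was highest at 7.48 against 7.25. On E13.5 sample B63E5K, Sall4 was lowest at 4.09 against 4.76, Tnnt1 was lowest at 8.97 against 9.38 and Myog was lowest at 7.28 against 7.67. On E13.5 sample B63E7K, Tpx2 was lowest at 7.76 against 7.91. E11.5 sample 51 recurs most often. The cause was not tested.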

How the results depend on the processing

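Over 28 alternatives and 140 named genes, the call and direction of the net change held for 133 genes, and in 3899 of 3917 pairs of gene and alternative. The timing call held in all alternatives for 66 of 102 genes. These are the genes with the earlier (45) or the later (57) interval called larger, and the 25 not told apart are left out. Most named genes were chosen for a large called net change, so these rates do not compare how far timing and net change depend on the processing. No paired analysis was possible because the stages share no replicate numbers. Title prefixes B62 and B63 of the E13.5 samples gave separate values for 28 of the 140 genes, with a consensus correlation of 0.601. The like count was not made over all genes, so the 28 are not read as a result about the named genes. The errors and p-values quoted above come from the fit without the prefix, so they may be too small. Of 18 counts, 13 stayed within 1.5 times, though the balance of rises to falls turned with quantile normalization and median centring (5165 to 6075 and 4551 to 7627, against 5944 to 5303). Averaging probe sets gave 603 genes at least 2-fold higher at E11.5 than E9.5, 691 higher and 438 lower at E13.5 than E11.5, and 351 rises larger in the earlier interval. The second-brightest probe set gave 715 genes higher at E11.5 and 325 such rises. Adding 16 before log2 left 279 falls not told apart. Net differences changed sign with the second-brightest probe set for Sema3f (-0.13), Aldoc (-0.028) and Hand2 (-0.30), and with median centring for Hbb-y (-0.026). The later minus earlier difference changed sign with the mean of probe sets for Chl1 (0.004), Nfia (0.73), Hes6 (-0.39) and Tpx2 (-0.45), with the second-brightest for Chl1 (0.65), Irs4 (-0.47), Igdcc3 (0.60), Nfia (2.63), Col1a1 (0.28), Neurog1 (0.25), Gria2 (-1.99), Hes6 (-1.38), Fgf17 (0.47), Ldhb (0.039), Hand2 (-0.20) and Igf2 (-0.16), and for Chl1 with a floor (0.11) or 16 added (0.52). The cause was not tested. Signal near background limits what low genes can show, and stage cannot be told apart from kit in any alternative.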
